A study of Danio rerio with 15 samples.

Results

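The 200 steadiest transcripts are those whose share of the library varied least from fish to fish in zebrafish skeletal muscle. They were chosen by measured values. The level of each transcript was expressed as CPM, its estimated count divided by the sum of all estimated counts in that library and set to a total of 1000000. Among 57775 transcripts, 4113 had a mean of 20 to 200 CPM over 14 of the 15 libraries, and the 200 with the smallest SD of log2(CPM + 1) over those 14 were taken. The fifteenth library, scaf1+/+ standard diet replicate C, played no part in the choice.

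RNA of skeletal muscle from 15 female fish was sequenced, 1 fish per library, to see how the loss of scaf1 and a richer feeding schedule change muscle gene expression. The groups were scaf1-/- fish on double diet (n = 4), scaf1+/+ fish on double diet (n = 3), scaf1-/- fish on standard diet (n = 4) and scaf1+/+ fish on standard diet (n = 4). The mutants carried the Δ1 allele, the scaf1+/+ fish were their siblings, feeding started at 7 months after fertilization, and muscle was taken after 6 weeks. Per the labels, dry food was given 5 times a day in double diet and 3 times a day in standard diet, while the methods describe fewer dry feeds on weekdays, with artemia in addition, in both diets. Apart from the left-out library, totals were 11671548 to 15844709 counts with 27748 to 35800 transcripts detected. The left-out library had 4045429 counts and 15655 transcripts. Its values are therefore given apart from the others, while the tests between groups include it unless stated.

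Scaf1 (Cox7a2l) is a mitochondrial protein that helps to join respiratory complexes III and IV into a supercomplex. Skeletal muscle RNA is dominated by a few very abundant contractile, energy-metabolism and mitochondrial transcripts, and any measure that divides by the library total is affected when those transcripts change. Steady transcripts are of use because they serve as the internal reference against which other transcripts are read. The transcripts are given by Ensembl ID because the tables at hand pair none of these IDs with a gene, so neither the identity of the members nor markers of muscle or of other cell types could be examined. In bulk muscle, fewer cells of a type and less RNA per cell cannot be told apart.

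The choice gave a narrow group. The SD of log2(CPM + 1) was 0.112 to 0.269 in the members, with a median of 0.23, whereas the other 3913 transcripts of the window had a median of 0.677 and reached 3.79. The highest of the 14 fish exceeded the lowest by less than 2-fold in 186 members (93.0%) and in 98 of the others (2.5%). These values are those the choice was made on and are given as a description. At the edge of the choice, the last 3 transcripts taken were ENSDART00000001830.7, ENSDART00000158293.2 and ENSDART00000002501.7, with SDs of 0.268, 0.269 and 0.269. The first 3 left out, ENSDART00000189994.1, ENSDART00000018472.8 and ENSDART00000025501.9, each had 0.269, so the edge lies in a continuous range.

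**Figure D1:**
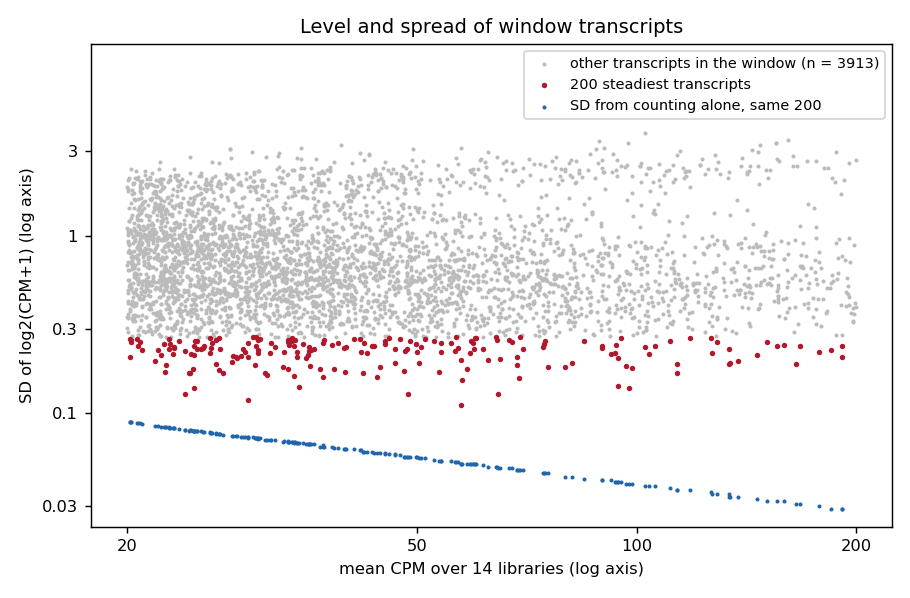
Each point is a transcript of the window, placed by its mean CPM (x axis, log scale) and its SD of log2(CPM + 1) over the 14 fish (y axis, log scale). The 200 members (red) form the lower edge at 0.112 to 0.269 and lie above the SD that counting alone would give for the same transcripts (blue, 0.029 to 0.09).

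Counting error alone would give the members an SD of 0.029 to 0.09, with a median of 0.063. That is a median of 28.1% of the SD they showed, against 10.7% in the other transcripts of the window. This ratio of SDs was thus larger in transcripts chosen for a small spread. A ratio of SDs is not a share of the variance, so it does not give the part of the spread due to counting. The ratio was highest in ENSDART00000124499.4, at 63.1%.

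The steadiest transcript of all was ENSDART00000036331.8, 1069 bases long, with a mean of 57.3 CPM and an SD of 0.112. It had 64.1, 51.2, 54.9 and 55.1 CPM in scaf1-/- double diet fish, against 60.3, 56.3 and 53.0 CPM in scaf1+/+ double diet fish. In standard diet it had 51.2, 65.0, 60.3 and 55.4 CPM in scaf1-/- fish, against 54.6, 58.5 and 62.7 CPM in the scaf1+/+ fish used for the choice. The groups overlapped in every comparison. In the left-out fish it stood at 70.9 CPM, above all the others.

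The next was ENSDART00000039187.8 (1520 bases, mean 29.3 CPM, SD 0.119). It had 27.1, 27.1, 27.5 and 26.3 CPM in scaf1-/- double diet fish, against 30.5, 29.9 and 26.8 CPM in scaf1+/+ double diet fish. In standard diet the values were 32.1, 33.4, 30.2 and 27.0 CPM in scaf1-/- fish, against 27.6, 33.4 and 30.8 CPM in scaf1+/+ fish. Again the genotypes overlapped within each diet, and the left-out fish, at 26.5 CPM, lay inside the range of the others. The estimated count of this transcript was whole in all 15 libraries.

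ENSDART00000124499.4 (3577 bases, mean 24 CPM, SD 0.128) was as even among the 14 fish. It had 22.6, 22.2, 24.3 and 23.1 CPM in scaf1-/- double diet fish, against 25.9, 22.1 and 21.4 CPM in scaf1+/+ double diet fish. In standard diet it had 24.8, 24.2, 20.5 and 27.7 CPM in scaf1-/- fish, against 27.7, 23.4 and 26.1 CPM in scaf1+/+ fish. The left-out fish parted from all of them with 8.9 CPM.

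The other seven of the 10 steadiest had SDs up to 0.154. ENSDART00000099602.5 averaged 64.5 CPM, and 23.2 CPM were measured in the left-out fish. ENSDART00000018908.7 averaged 48.5 CPM, with 25 CPM in the left-out fish. ENSDART00000109258.4 averaged 97.6 CPM, with 39.8 CPM there. These transcripts were thus lower in the left-out fish than in any fish used for the choice. Lower too were ENSDART00000147633.2, at 14.8 CPM in the left-out fish against a mean of 24.7 CPM, and ENSDART00000078513.5, at 21.5 CPM against a mean of 57.7 CPM. ENSDART00000102678.5, at 37.1 CPM against a mean of 34.4 CPM, and ENSDART00000014729.6, at 88.5 CPM against a mean of 94.4 CPM, stayed inside the range. Of the 10 steadiest, 3 lay inside the range of the 14 in the left-out fish.

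**Figure D2:**
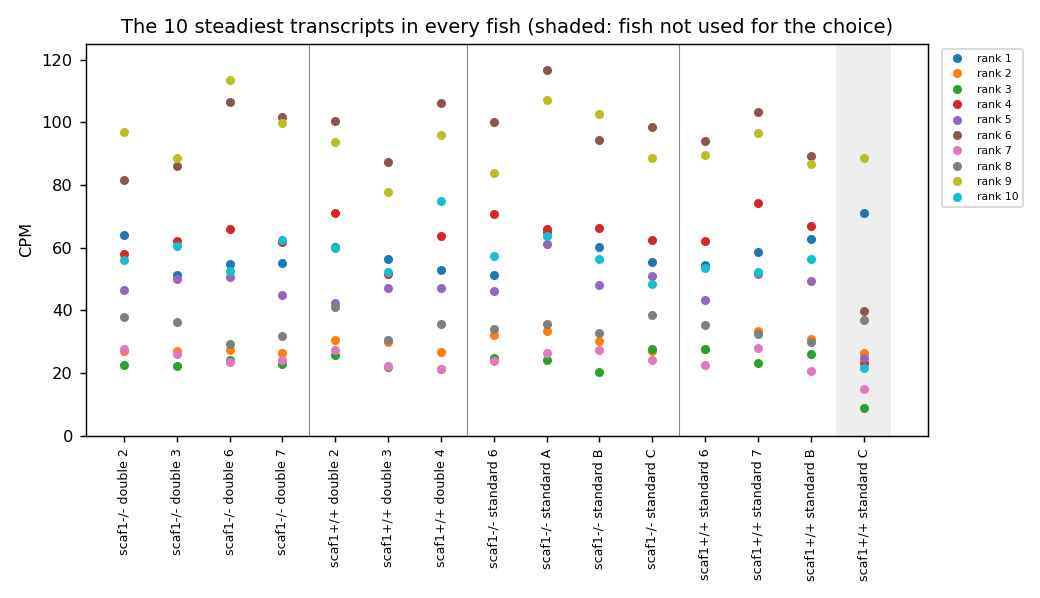
CPM (y axis) of the 10 steadiest transcripts in each of the 15 fish (x axis, labelled by genotype, diet and replicate), 1 colour per transcript in order of SD. Each colour runs level across the 14 fish used for the choice, and in the shaded fish, scaf1+/+ standard diet replicate C, 3 of the 10 lie within their own range.

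The members shared some features that the choice did not use. They were shorter, with a median length of 1778 bases against 2436 bases in the other transcripts of the window. Transcripts over 5000 bases made up 12 members (6.0%) and 616 of the others (15.7%), while those under 1000 bases made up 25 members (12.5%) and 515 of the others (13.2%). Members were more often 1000 to 2000 bases long, in 88 (44.0%) against 1003 of the others (25.6%). They were less often 3000 to 5000 bases long, in 22 (11.0%) against 876 of the others (22.4%). The mean level was close, at a median of 39.8 CPM in members and 36.6 CPM in the others. Per length the members were higher, at a median of 29.2 TPM against 17.6 TPM (TPM divides by transcript length before scaling to the same total as CPM). Kallisto divides a read that fits several transcripts among them, so estimated counts can be fractional. They were whole in all 15 libraries, to within 1e-06, in 50 members (25%) and in 722 of the others (18.5%), and whole in no library in 50 members (25%) and 1261 of the others (32.2%). These features were not particular to the members. Transcripts at ranks 201 to 600 by SD had a median length of 1942.5 bases. They were whole in all 15 libraries nearly as often as members. Length did not rise evenly with SD either. The least steady transcripts, ranks 3501 to 4113, had a median of 2071 bases, against 2234.5 to 2980.5 bases in the bins of ranks 601 to 3500. All these values are descriptions, and no test was made of them.

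As a group the members took up nearly the same share of each of the 14 libraries. They summed to 10869 ± 527 CPM in scaf1-/- double diet fish (SD, n = 4) and 10995 ± 627 CPM in scaf1+/+ double diet fish (SD, n = 3). In standard diet they summed to 11013 ± 722 CPM in scaf1-/- fish (SD, n = 4) and 10996 ± 364 CPM in scaf1+/+ fish (SD, n = 3, without replicate C). The group means lay closer together than fish within a group. The choice favoured transcripts that are even over these same 14 libraries, so this is a description and nothing about genotype or diet is read from it. Over the 14 fish the members held 1.02% to 1.19% of all counts, from 10225 CPM in scaf1-/- standard diet replicate C to 11877 CPM in scaf1-/- standard diet replicate A.

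The same 14 fish differed widely in the remainder of the window. The median log2 difference from the mean of the 14 was between -0.12 and 0.11 in members of a single fish, and between -0.62 and 0.70 in the other transcripts. Members were chosen to differ little in these fish, so the contrast is a description. The 100 most abundant transcripts took 35.3% to 66.7% of the counts of a library, and the others of the window were lowest where that share was highest, in scaf1-/- standard diet replicate C. Members kept small differences of their own. The lowest value of a member fell most often in that same fish, for 35 members, and the highest most often in scaf1-/- standard diet replicate A, for 43.

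**Figure D3:**
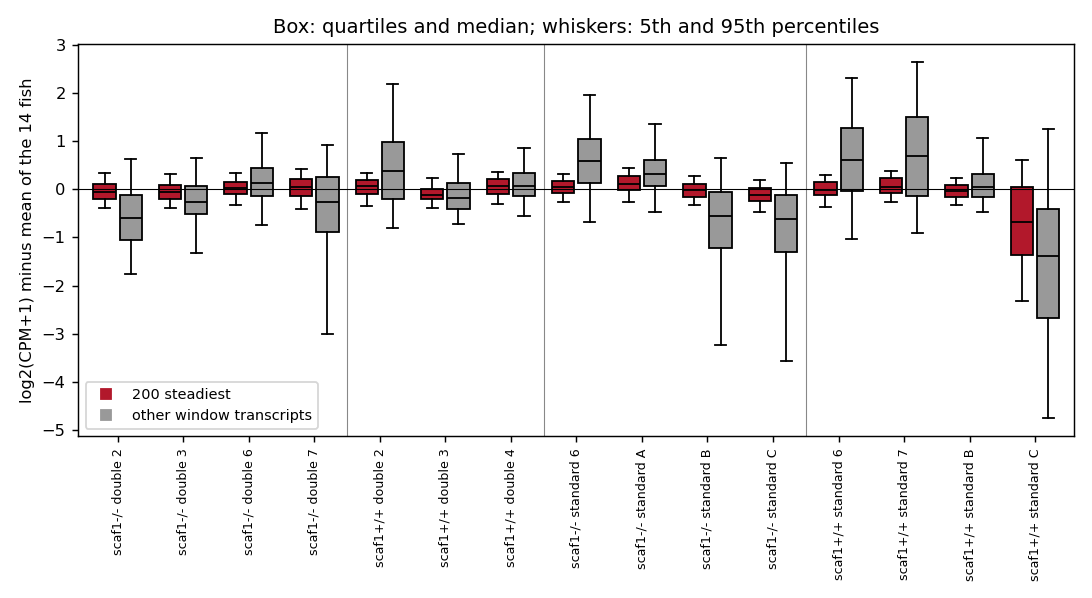
Difference of log2(CPM + 1) from the mean of the 14 fish (y axis) in each fish (x axis), for the 200 members (red) and the other transcripts of the window (grey); boxes give quartiles and median, whiskers the 5th and 95th percentiles. Member medians stay between -0.12 and 0.11 in the 14 fish and stand at -0.67 in scaf1+/+ standard diet replicate C.

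Small as they were, the deviations of the members ran together in some pairs of fish. Over the 200 members, Pearson's r of the deviations was 0.56 between scaf1-/- double diet replicates 2 and 3, 0.53 between the replicates 6 of both genotypes in standard diet and also 0.53 between scaf1+/+ double diet replicate 2 and scaf1+/+ standard diet replicate 7. It was lowest, at -0.46, between scaf1-/- standard diet replicates 6 and B. Both these fish carry the same genotype and diet, so likeness did not follow the groups there. The points are transcripts, which are not independent, and all pairs share the mean from which deviations were taken.

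The library left out of the choice gives the only view of the members that is independent of it, and it is a single fish sequenced less deeply than any other. The members were lower in it, with a median log2 difference of -0.67 from the mean of the 14 (quartiles -1.37 and 0.04, range -5.46 to 2.43), against -1.39 in the other transcripts of the window. A difference of at most 1 on the log2 scale was seen in 118 members (59.0%) and in 1288 of the others (32.9%). More than 2-fold lower values were seen in 77 members (38.5%) and 2363 of the others (60.4%), and more than 2-fold higher values in 5 members (2.5%) and 262 of the others (6.7%). The members were thus closer to their usual level than the others were, though far from steady. Of the 200, 52 (26.0%) lay within the range of the 14 fish, 121 (60.5%) below it and 27 (13.5%) above it. The others of the window lay within their own, wider ranges more often, in 1642 of 3913 cases (42.0%).

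At the depth of that library, the mean CPM of the members corresponds to 81.7 to 774 counts each, and the 3 counts that a count of 0 allows correspond to 0.742 CPM, for counting error only. No count was found for 2 members (1.0%) and for 431 of the others (11.0%). ENSDART00000082071.6 had 31.3 to 58.5 CPM in the 14 fish and no count in the left-out fish, where its mean level corresponds to 177. ENSDART00000140811.3 had 18.2 to 31.8 CPM in the 14 and no count there, where its mean level corresponds to 93.7. These were the lowest members in that fish. The highest were ENSDART00000141406.2, at 172 CPM (697 counts) against 23.6 to 41.4 CPM in the 14, and ENSDART00000037282.4, at 105 CPM (426 counts) against 16.8 to 28.9 CPM in the 14. Both of the highest exceeded every fish used for the choice. The estimated count was whole in 0 libraries for ENSDART00000141406.2 and in 1 library for each of the other named extremes. In the remaining libraries it was fractional, a share of reads that fit several transcripts. How such reads were divided in the left-out fish was not tested. With length, the difference in that fish had a Spearman rho of -0.14 over the 200 members and -0.01 over the others, points that all come from 1 library.

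Broadly, transcripts that were steadier among the 14 fish stayed closer in the left-out fish. Over ranks 1 to 200 by SD the median difference was -0.67 and 1.0% had no count. Over ranks 201 to 600 the median was -0.79 with 2.25% lacking a count, over ranks 601 to 1000 it was -0.86 with 3.25%, over ranks 1001 to 1500 it was -0.80 with 6.6%, so the order was not strict, and over ranks 1501 to 2000 it was -0.95 with 5.4%. In ranks 3501 to 4113, the least steady, the median was -2.99 and 29.0% had no count. The members therefore sit at the end of a gradient, and the step from them to the next ranks was small.

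**Figure D4:**
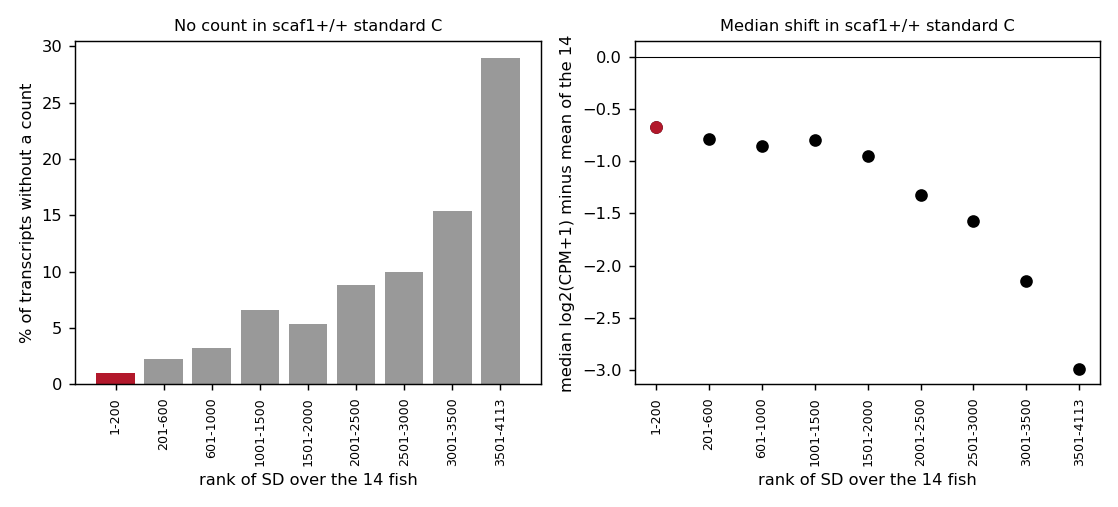
Transcripts of the window in order of their SD over the 14 fish (x axis, rank bins), with the percentage lacking a count in scaf1+/+ standard diet replicate C (left, y axis from 0) and the median log2 difference from the mean of the 14 there (right). The members are in red, at 1.0% and -0.67, against 29.0% and -2.99 in the last bin.

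To see whether a fish outside the choice always looks like this, each of the 14 fish was left out in turn and 200 transcripts were chosen anew on the remaining 13. The new choices shared 170 to 185 transcripts with the 200. In the fish left out, the median absolute log2 difference of the newly chosen was 0.16 to 0.26, against 0.24 to 0.88 in the others of the window. None of them lacked a count there, 0 to 2 of the 200 differed more than 2-fold, and 130 to 177 lay within the range of the 13. For scaf1+/+ standard diet replicate C the corresponding values were a median absolute difference of 0.78, 2 members without a count, 82 differing more than 2-fold and 52 within the range. It stood apart from each of the 14. That library also had the lowest depth. Its share of the 100 most abundant transcripts, 65.7%, lay inside the range of the 14 fish, 35.3% to 66.7%. The part of depth and of that share in the shift was not tested.

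Steadiness depended on what a library is scaled by. The members are steady as a share of all counts. When libraries were scaled by TMM (the trimmed mean of M values, which sets the bulk of transcripts equal between libraries), the median SD of the same 200 was 0.51, against 0.62 over the window, and none of them was among the 200 steadiest chosen under TMM. With median-ratio scaling the median SD was 0.39 and 6 of the 200 were chosen again. With TPM, 79 were chosen again. Under TMM the members' medians spread from -0.78 in scaf1+/+ standard diet replicate 6 to 0.64 in scaf1-/- double diet replicate 2, libraries whose TMM factors were 1.82 and 0.639. The direction in the left-out fish turned as well. The members' median difference there was 0.21 under TMM and 0.31 under median-ratio scaling, against -0.67 by the library sum.

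**Figure D5:**
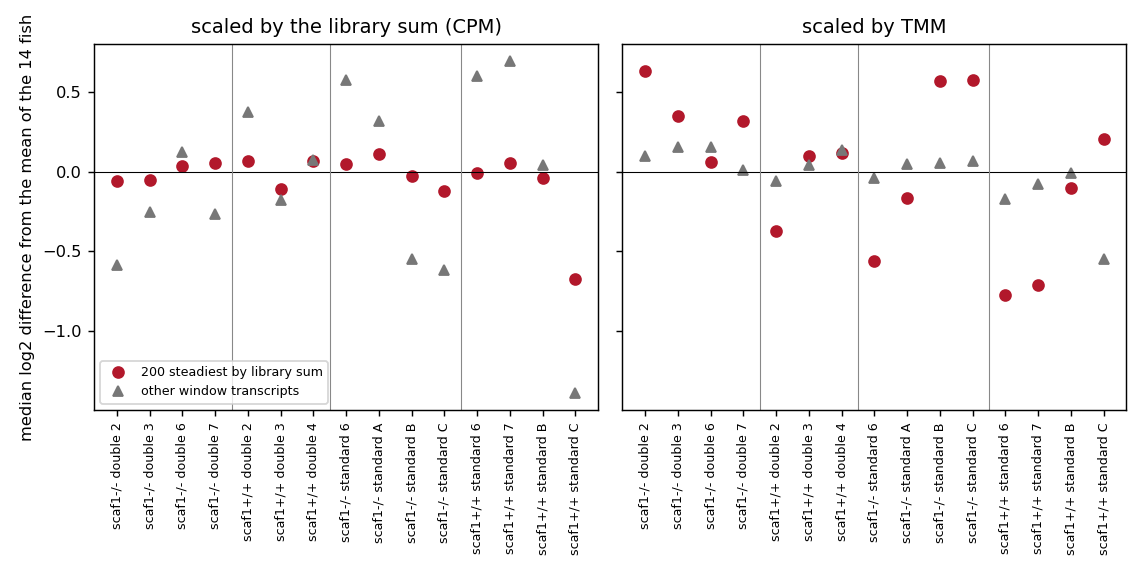
Median log2 difference from the mean of the 14 fish (y axis) in each fish (x axis) for the 200 members (red circles) and the other transcripts of the window (grey triangles), scaled by the library sum (left) or by TMM (right). By the library sum the members lie near 0 in the 14 fish, and by TMM they spread from -0.78 to 0.64, while the left-out fish stands at -0.67 on the left and at 0.21 on the right.

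Differences between genotypes and diets were small in CPM, which follows from the choice, since it used these same libraries. The comparisons share fish, so each is given by its own values. The mean log2(CPM + 1) of scaf1-/- fish minus that of scaf1+/+ fish had a median of -0.02 over the members in double diet, against -0.32 over the window, and of -0.02 in standard diet, against -0.48 over the window. Double diet minus standard diet gave a median of -0.01 in scaf1-/- fish, against -0.11 over the window, and of -0.02 in scaf1+/+ fish, against -0.42 over the window. These differences, and the overlaps below, leave out scaf1+/+ standard diet replicate C. Without that fish no member differed by more than 0.61 in any of them. With it, and by TMM scaling in edgeR, log2 fold changes of members were wider. They ran from -1.425 to 1.437 for genotype in standard diet and from -1.68 to 0.994 for diet in scaf1+/+ fish. The groups did not overlap, with the first group higher, in 6 members (3.0%) for genotype in double diet, against 2.24% of all 26970 transcripts tested. For genotype in standard diet the count was 8 members (4.0%), against 1.21% of all. For diet it was 4 members (2.0%) in scaf1-/- fish, against 1.71% of all, and 13 (6.5%) in scaf1+/+ fish, against 3.33%. With the first group lower they did not overlap in 5 members (2.5%) for genotype in double diet, against 9.83% of all tested. For genotype in standard diet the count was 2 members (1.0%), against 3.89% of all. For diet it was 7 members (3.5%) in scaf1-/- fish, against 2.55% of all, and 11 (5.5%) in scaf1+/+ fish, against 12.1%. Nothing is read from these counts.

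The member that differed most upwards was ENSDART00000002501.7, the last one chosen. It had 75.4, 100.5 and 85.3 CPM in scaf1+/+ double diet fish, against 43.7, 65.2 and 63.2 CPM in the scaf1+/+ standard diet fish used for the choice. All these scaf1+/+ fish on double diet were above all those on standard diet, and the group means differed by 0.61 on the log2(CPM + 1) scale. In scaf1-/- fish the diets overlapped, with 62.5, 71.3, 71.6 and 75.1 CPM on double diet against 65.5, 58.3, 65.1 and 66.7 CPM on standard diet. Whether the diet difference depended on genotype had an adjusted p of 1 by edgeR.

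The largest upward difference between genotypes in standard diet, 0.44, was that of ENSDART00000104420.4. It had 48.9, 65.6, 56.6 and 56.2 CPM in scaf1-/- fish, against 37.0, 42.3 and 45.2 CPM in scaf1+/+ fish. The genotypes did not overlap in that diet. In double diet they did, with 50.7, 50.9, 40.6 and 42.5 CPM in scaf1-/- fish against 48.0, 54.2 and 39.1 CPM in scaf1+/+ fish.

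Downwards, the largest difference was that of ENSDART00000159181.2. It had 135.4, 115.7, 112.6 and 131.4 CPM in scaf1-/- double diet fish, against 173.6, 225.2, 142.7 and 168.7 CPM in scaf1-/- standard diet fish, a difference of -0.50. All scaf1-/- fish on double diet were below all scaf1-/- fish on standard diet. In scaf1+/+ fish it was also lower on double diet, with 147.4, 150.5 and 134.6 CPM. The scaf1+/+ standard diet fish used for the choice had 154.5, 164.6 and 158.6 CPM, and the left-out fish had 29.2 CPM. Next came ENSDART00000077404.5, with 21.4, 28.5, 24.2 and 23.8 CPM in scaf1-/- double diet fish against 39.8, 36.9 and 27.6 CPM in scaf1+/+ double diet fish, a difference of -0.48. Here a mutant at 28.5 CPM and a scaf1+/+ fish at 27.6 CPM overlapped. Each of these 4 transcripts had the largest difference of the 200 in its direction and comparison and was taken for that. A further member, second to ENSDART00000002501.7 for diet in scaf1+/+ fish, differed by 0.52 there.

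Tested across all 26970 transcripts with edgeR's quasi-likelihood test, with TMM scaling and all 15 libraries, 0 of the 200 members passed both bounds, 0.05 for the adjusted p and an absolute log2 fold change of 1, in genotype in double diet, genotype in standard diet, diet in scaf1-/- fish, diet in scaf1+/+ fish or the interaction of both. The share called over all transcripts was 0% in each of the 5. An unadjusted p under 0.05 was found for 2 members in the comparison of genotypes in double diet (5.05% of all tested), 40 in that of genotypes in standard diet (5.9%), 0 in that of diets in scaf1-/- fish (5.69%), 1 in that of diets in scaf1+/+ fish (3.9%) and 0 in the interaction (3.87%). The count of 40 changed with the library left out, from 4 to 70. It was 4 without scaf1-/- standard diet replicate B or C, 9 and 12 without scaf1+/+ standard diet replicate 6 or 7, 22 without scaf1+/+ double diet replicate 3 or 4 and 25 without scaf1-/- double diet replicate 3. It was 30, 31 and 27 without scaf1-/- double diet replicate 2, 6 or 7, 30 without scaf1+/+ double diet replicate 2 and 38 without scaf1-/- standard diet replicate A. Higher counts were 52 without scaf1+/+ standard diet replicate B, 69 without scaf1-/- standard diet replicate 6 and 70 without scaf1+/+ standard diet replicate C. The share over all transcripts was 3.23% to 9.98% over all libraries left out in turn. It was 3.23% and 3.43% without scaf1-/- standard diet replicate B and C. For the fits with 52, 69 and 70 members it was 9.98%, 9.41% and 8.79%. With same-marked fish as a replicate block the count of members was 8 (3.39% of all transcripts). That block joined fish by mark alone, across genotypes and diets, and whether the marks pair fish is not known. The single member for diet in scaf1+/+ fish became 13 without scaf1+/+ standard diet replicate B, while the share over all transcripts went from 3.9% to 6.37%.

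DESeq2, unlike edgeR, did call transcripts. For genotype in double diet it called 124 (0.409% of those it tested), for genotype in standard diet 52 (0.182%), for diet in scaf1-/- fish 169 (0.574%), for diet in scaf1+/+ fish 43 (0.142%) and for the interaction 43 (0.156%). Among these were 0 members in each comparison. With its filter set for the 0.05 threshold, a run added after the data had been seen, it again called 0 members, while the shares over all in the same order were 0.491%, 0.153%, 0.614%, 0.167% and 0.126%. At an unadjusted p under 0.05 it had 3 members for genotype in double diet (4.42% of all transcripts), 22 for genotype in standard diet (4.56%), 0 for diet in scaf1-/- fish (5.34%), 2 for diet in scaf1+/+ fish (3.3%) and 0 for the interaction (3.11%). A missing call does not show that a member was equal between groups.

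The scaling showed here too. In standard diet the median log2 fold change of scaf1-/- over scaf1+/+ fish was 0.50 in the members and -0.09 over all transcripts by TMM, 0.27 and -0.28 by median-ratio scaling, and 0.10 and -0.39 by the library sum. With 40 members at an unadjusted p under 0.05 by TMM, there were 12 by median-ratio scaling (5.4% of all transcripts) and 1 by the library sum (3.47%), a fit added after the data had been seen. In double diet the same median was 0.43 in the members and -0.09 over all transcripts by TMM, and 0.27 and -0.27 by median-ratio scaling. By the library sum, on which the members were chosen to be even, it was -0.01 and -0.53. There 88 members were higher and 112 lower. These offsets between members and all transcripts are a description. The fits included scaf1+/+ standard diet replicate C, which played no part in the choice. Without that fish, and in CPM rather than by TMM, the difference of mean log2(CPM + 1) between genotypes in standard diet had a median of -0.02 over the members. Both the fish and the scaling changed there, so this does not show what the fish alone does. With TMM kept and that fish left out, edgeR had 70 members at an unadjusted p under 0.05 (8.79% of all transcripts). How far the offsets follow from the choice was not tested.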

How the data were processed

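RNA of skeletal muscle from 15 female zebrafish was measured by RNA-seq. The authors quantified reads with kallisto 0.45.0 on the Ensembl release 94 cDNA and deposited estimated counts per transcript with lengths and effective lengths, the same in every file. FastQC 0.11.8 and sleuth are also named in the submitters' processing notes. Estimates were taken to the nearest whole number, and CPM and TPM were computed here. The members, lists and comparisons were chosen with earlier results of these data known.

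Each library is 1 fish, grouped by the labels. The SD that counting alone would give was taken as Poisson. Tests used edgeR 4.0.16 in R 4.3.3 (filterByExpr with a smallest count of 10, TMM, quasi-likelihood test, Benjamini-Hochberg adjustment, 1 coefficient per group). DESeq2 1.42.0 was an alternative. It was first run with its default filter, and a run with the filter set for the 0.05 threshold was added after those counts had been seen. Both called 0 members, and over all transcripts 43 to 169 in the first run and 43 to 175 in the second. The tests were tried on simulated data. Alternatives were other scalings, windows, pseudocounts and measures of spread, unrounded counts, every counted transcript tested, the adjusted p without a fold bound, each library left out and a replicate block.

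The labels do not state whether the same replicate mark pairs fish of the 2 genotypes. Deviations from group means of same-marked fish correlated at 0.43, 0.12 and 0.39 in standard diet (marks 6, B and C). In double diet they correlated at -0.1 and -0.17 (marks 2 and 3). Mark C includes the left-out library. Fish with unlike marks were not compared in this way, so it cannot be said whether the marks pair fish.

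The rule for named transcripts took the 10 smallest SDs, the 3 transcripts on each side of the edge, the extremes in the left-out library and the largest differences between groups. As 0 of the IDs matched the gene tables, at most 2 in each direction are named in the last pair of these, and reference genes, gene lists, markers and sequences were not used here.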

Additional observations from a re-analysis of the deposited data

Results flagged for a closer look

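In scaf1+/+ standard diet replicate C, the fish left out of the choice, the mean log2(CPM + 1) of the 200 members was 4.81, against 5.49 to 5.60 in replicates 6, 7 and B. The SD of the members' log2 differences from the mean of the 14 was 1.07 in that fish, and 0.187 to 0.21 in the others of the group. In the same fish 2 members had no count, while each member was counted in the other 3. Those 3 chose the members and this fish did not. Apart from the members, the total count of scaf1-/- double diet replicate 2 was 15453702, while the other 3 fish of that group had 13359550 to 13540458. Each of these values stood far from the rest of its group, with 15 sets compared. Chance meets that comparison in about 1 of 20 sets where no fish of the group shaped the values. The choice made the members even in the other fish, so that rate does not apply to the values of the members.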

How the results depend on the processing

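Of the 200 members, 0 were chosen again with TMM scaling, 6 with median-ratio scaling, 79 with TPM, 118 by the median absolute deviation and 111 when all 15 libraries chose. On the TPM scale only 137 of the 200 lay in the window. Leaving out a library kept 170 to 185. The median SD of the chosen was 0.28 when all 15 libraries chose, against 0.23, and 0.22 to 0.23 with a library left out. The median difference in the left-out fish of the transcripts chosen under each setting was -0.33 with TMM, -0.10 with median ratios, -0.56 with a window of 10 to 400 CPM and -0.54 by the SD within groups, and -0.69 to -0.55 with another library left out. Of the transcripts chosen under each setting, those without a count there were 5 with TMM, 6 with median ratios and 8 by the median absolute deviation. They were 5 by the SD within groups, and 2 to 3 with another library left out.

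With the replicate block, which joined same-marked fish across genotypes and diets, 0 members were called in each of the 5 comparisons. For genotype in standard diet, 8 instead of 40 had an unadjusted p under 0.05 by edgeR (3.39% of all transcripts in that fit, against 5.9%). No other setting, library left out included, called a member. The left-out library is 1 fish at 4045429 counts, so its values have no spread of their own.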
